A study of Mus musculus with 12 samples.

Results

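The genes described here are 49 interferon-stimulated antiviral genes of the mouse, given as a list of symbols and found in the deposited count table through the GENCODE M21 annotation. All 49 were present among 54532 gene IDs, and all 49 were among the 16675 genes that passed the low-count filter and were tested. They passed in part through the cultured libraries, where every one of them was at its highest. The list did not come from these measurements, but it was drawn up with earlier results of the same libraries known. For the description the genes were divided into 11 families by what their products do: 3 transcription factors, 3 genes of ISG15 conjugation, 4 IFIT genes, 6 oligoadenylate synthetase (OAS) genes, the pair of Mx genes, 4 enzymes acting on nucleotides or RNA, 7 nucleic acid sensors and their partners, 4 genes of the PARP and Dtx3l group, 3 membrane restriction factors, the pair of Ifi27 genes, and 11 further interferon-induced genes.

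Interferons are secreted proteins that warn neighbouring cells of infection. Type I and type III interferons bind receptors whose kinases phosphorylate STAT2, which joins IRF9 in the complex ISGF3. ISGF3 binds the interferon-stimulated response element in the promoters of antiviral genes, whose products block viral entry, degrade or modify RNA, sense foreign nucleic acid and feed back on the pathway. Haematopoietic stem cells respond to interferon by entering the cell cycle, and many of these genes have a measurable basal level in stem cells without infection.

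The cells were HSPCs, the haematopoietic stem and progenitor cells that give rise to blood, and their mRNA was read in 12 libraries forming 4 groups of 3. Young cells and aged cells were taken without culture, and further aged cells after culture with either vehicle or uridine, a pyrimidine nucleoside. All were labelled bone marrow and WT, with strain names that change from sample to sample (from c57bl/6 to c57bl/15), so the strain is uncertain. No allele, transgene or other agent is named for any group, and the ages, the sort markers, the culture time, the medium and the uridine dose are nowhere stated in the labels used here. No library of cultured young cells was analysed here, so the effects of age and of culture cannot be told apart between the young group and the cultured groups. Nothing in the labels tells whether libraries within a group are separate animals, separate cultures or repeats of 1 preparation, so p-values measure only how these libraries vary and that variation may be technical.

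Library totals ran from 16785065 to 19025802 counts. Markers of stem and progenitor cells such as Kit and Myb summed to 1229 to 1569 CPM in every library, none of the 10 at 0. Other cell types were also seen: immunoglobulin transcripts and the antibody joining chain made up 21.8% ± 0.171 (SD, n = 3) of counts in the aged libraries against 0.542% ± 0.00257 in the young, and summed neutrophil markers were 5068 to 5292 CPM in young, 517 to 552 in aged, 289.5 to 298 in vehicle and 1914 to 1984 in uridine libraries. For many genes the uridine libraries lay between the vehicle and the young libraries, and the values of this position are given below beside the uridine result. Levels are CPM, counts divided by library size after TMM scaling, and are comparable between libraries for a given gene; a level with ± is the mean and SD of 3 libraries. In bulk samples, fewer cells of a type and less RNA per cell cannot be told apart.

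The response element is the textbook sequence feature of genes of this kind, so the stretches of promoter that hold its core are shown for the members on which the results below turn. The core searched was GAAA, any 2 bases, then GAAA, on both strands, in the RefSeq promoter windows of 250 bases before to 50 bases after a gene start (GRCm38.p6). Matches may overlap by 4 bases, the end of one core serving as the start of the next. Windows were matched for 37 members, and the other 12 (Dhx58, Ifi204, Ifi27, Ifi27l2a, Mx1, Mx2, Oas2, Parp14, Parp9, Rtp4, Usp18 and Zbp1) were not examined. Distances of matches are counted from the start used by the window. Only for 20 of the 37 did such a start lie within 10 bases of the GENCODE gene start. The core was present in 18 of the 37 (48.6%), against 3.99% of all 27025 genes with a window, and 10 members held at least 2 matches in a window. In the lines that follow, capitals mark the core matches and each stretch is written along the strand of its gene, so that a core on the opposite strand reads TTTC, 2 bases, TTTC. They are from Ifit1 at chr19:34640770-34640828 (+), Ifit3 at chr19:34583358-34583431 (+), Ifit3b at chr19:34607754-34607827 (+), Isg15 at chr4:156200860-156200911 (-), Oas1a at chr5:120907526-120907560 (-), Oas1g at chr5:120887614-120887646 (-), Oas3 at chr5:120777710-120777749 (-), Rsad2 at chr12:26456548-26456587 (-), Bst2 at chr8:71537572-71537617 (-) and Stat2 at chr10:128270261-128270300 (+).
Ifit1: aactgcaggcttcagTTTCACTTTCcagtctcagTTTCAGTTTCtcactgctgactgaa
Ifit3: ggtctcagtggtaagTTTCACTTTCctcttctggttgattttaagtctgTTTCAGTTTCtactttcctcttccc
Ifit3b: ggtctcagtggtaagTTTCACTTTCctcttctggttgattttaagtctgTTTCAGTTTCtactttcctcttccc
Isg15: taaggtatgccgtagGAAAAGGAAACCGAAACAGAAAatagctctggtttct
Oas1a: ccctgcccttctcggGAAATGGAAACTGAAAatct
Oas1g: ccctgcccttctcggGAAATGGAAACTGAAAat
Oas3: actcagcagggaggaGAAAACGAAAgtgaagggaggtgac
Rsad2: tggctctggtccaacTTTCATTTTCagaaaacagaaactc
Bst2: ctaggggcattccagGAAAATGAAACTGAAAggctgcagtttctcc
Stat2: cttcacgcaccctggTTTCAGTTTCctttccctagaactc
Isg15 held 3 overlapping matches, the most of any member, beginning 78, 72 and 66 bases before its start. The Ifit3 and Ifit3b stretches were identical over their 74 bases. Oas1a and Oas1g were identical up to the end of the shorter stretch, with matches 20 and 14 bases before the start in the former and 18 and 12 in the latter. No match was found in the windows of 19 members, among them Irf7, Ifit2, Cmpk2, Oasl1 and Oasl2, which says only that these letters were not in those windows.

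**Figure D1:**
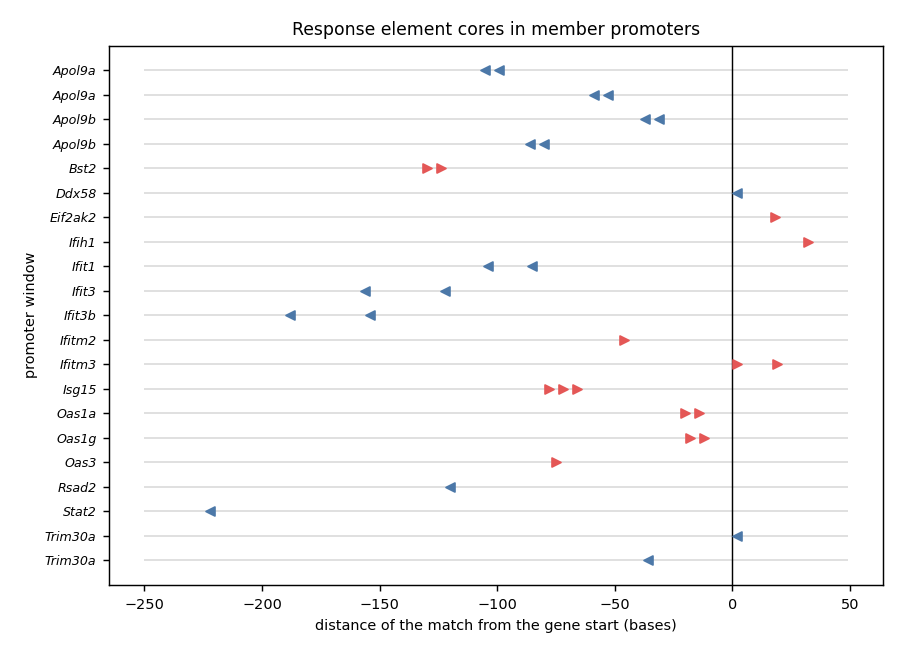
Positions of the core matches in the promoter windows of the 18 members that held one. The x axis is the distance in bases of a match from the gene start (vertical line at 0), each grey line is a window running from 250 bases before to 50 after the start, and arrowheads point along the strand of the match relative to the gene; genes with 2 lines have 2 annotated starts. Matches lie mostly upstream of the start, in pairs or in a row of 3 for 10 members.

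Culture went with the largest differences. All 49 genes were higher in aged cells cultured with vehicle than in uncultured aged cells, with a median log2 fold change of 3.80. The changes ran from 0.42 in Ifitm2 to 9.21 in Ifit3b, apart from Apol9a, which had 0 counts before culture and whose fitted 11.59 is no bound; with Apol9a at its bound the median was again 3.80. Over all genes tested the median was -0.01, and 35.4% were called higher and 35.1% lower at an adjusted p under 0.05 (edgeR's quasi-likelihood test, Benjamini-Hochberg over all genes). A log2 change of at least 1 was reached by 46 of the 49 members and by 11.6% of all genes; Ifitm2, Ifi27 and Sp100 were the members below it. The vehicle libraries of every member lay above all 9 other libraries, as they did in 15.3% of all genes. The summed level of the members was 1511 ± 20.5 CPM in uncultured aged libraries and 11840 ± 40.7 CPM in vehicle libraries, so that members made up 1.248% of all counts in vehicle libraries.

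Cells cultured with uridine had less of every member than cells cultured with vehicle. All 49 were called lower and none higher, where 18.1% of all genes were lower and 20.0% higher. No member's 3 uridine libraries overlapped its 3 vehicle libraries. Of all 16675 genes tested, 4137 were lower and 4197 higher with uridine without such overlap. The differences were moderate: the median was -0.66, the range from -1.17 in Ifit3b to -0.15 in Ifitm2, and Ifit3b alone was lower by at least 1, a size reached downward by 0.708% of all genes. The members summed to 7765 ± 31.9 CPM in uridine libraries. The order vehicle, then uridine, then both uncultured groups, without overlap, held for 48 of 49 members and for 10.7% of all genes. Ifi27 was the exception, since its uridine libraries overlapped the uncultured aged ones.

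Between uncultured cells the members did not move as a block. In aged cells 33 of 49 were lower, 9 were higher and 7 were not called, with a median of -0.56 against 0.02 over all genes; of all genes 32.1% were lower and 33.2% higher. A difference of at least 1 on the log2 scale was reached downward by 14 members (9.04% of all genes) and upward by Zbp1 alone (12.6% of all genes). The OAS, Mx, IFIT, ISG15 and PARP families were lower in all their members, while Samhd1, Isg20, Ddx58, Zbp1, Bst2, Ifi27, Samd9l, Sp100 and Phf11d were higher in aged cells. Irf7, Stat2, Ifitm2, Ifi35, Xaf1, Apol9a and Apol9b were not called. The share of counts held by the members was 0.174% in young and 0.126% in aged libraries, and 0.176% and 0.161% once immunoglobulin counts were left out of the total.

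**Figure D2:**
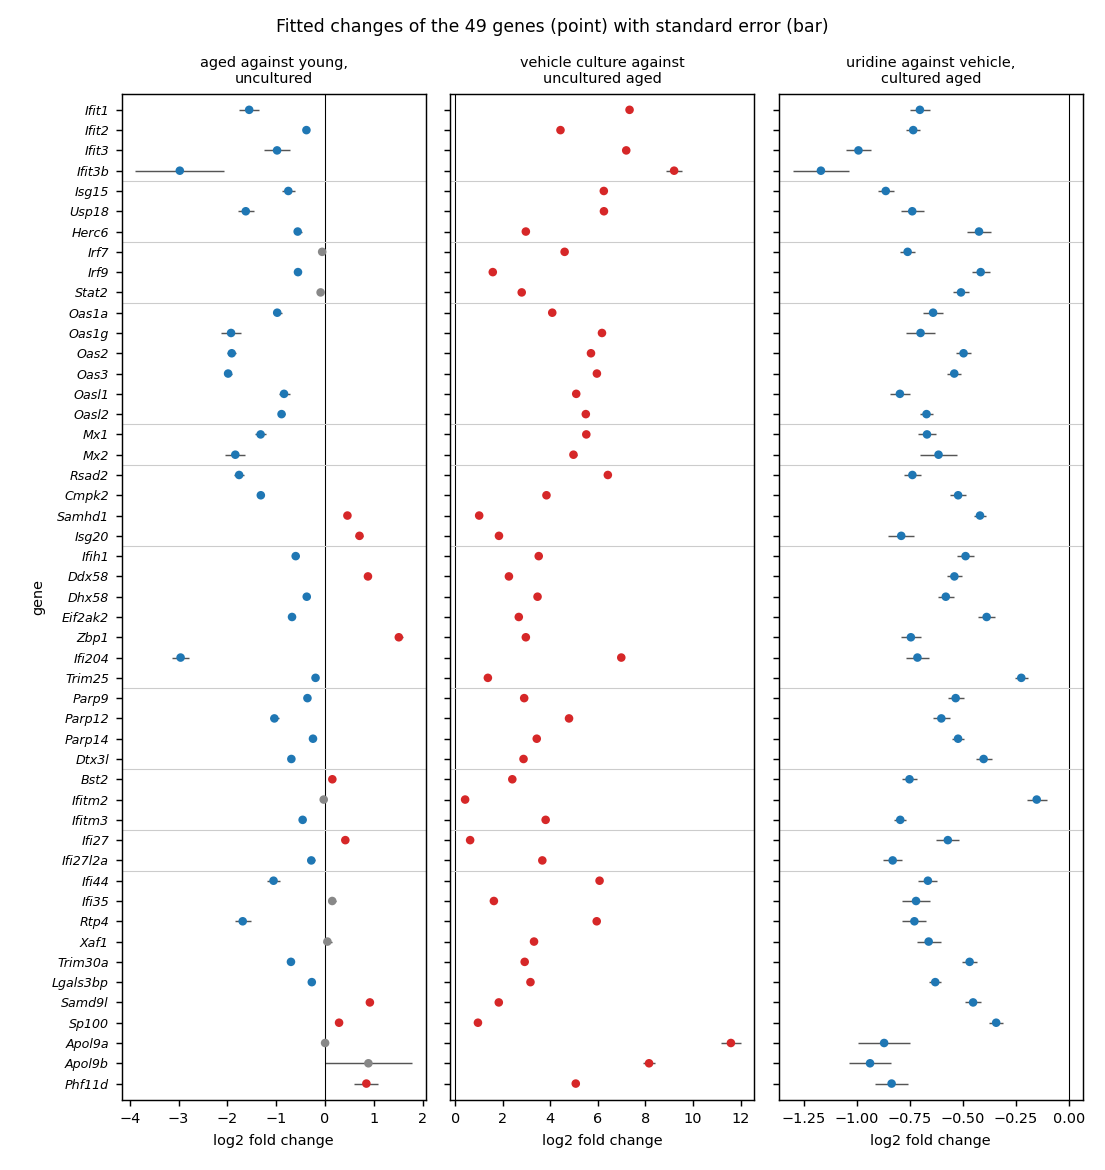
Fitted log2 fold change of each gene (point) with its standard error (bar) in the 3 comparisons. The standard error is the size of the change divided by the square root of the F statistic of edgeR's test. Red is called higher, blue called lower and grey not called at an adjusted p of 0.05, and the x axes differ in scale. All 49 genes lie right of 0 for vehicle culture against uncultured aged cells and left of 0 for uridine against vehicle, and 33 lie left of 0 and are called for aged against young.

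Changes below are fitted log2 fold changes ± SE, and adjusted p-values are from edgeR over all genes tested. The SE was derived from the test, as the size of the change divided by the square root of its F statistic. It is unreliable for genes with few counts. The comparison of uridine with vehicle shares no library with that of aged with young cells. Since all 49 members were lower with uridine, their joint calls repeat the split by age. The comparison of vehicle with uncultured aged cells shares libraries with each of the others, so the values are given side by side below and not related to each other.

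Among the transcription factors, Irf7, the factor that amplifies type I interferon production, was measured at 26.2, 22.9 and 22.6 CPM in the young, 20.4, 23.5 and 25.1 in the aged, 554, 554 and 568 in the vehicle and 334, 327 and 328 in the uridine libraries. The log2 fold change was -0.76 ± 0.0345 in uridine against vehicle cultures (adjusted p = 8.36e-20), and 4.60 ± 0.0474 in vehicle against uncultured aged cells. The uncultured groups overlapped, and the age difference of -0.06 ± 0.0630 did not pass the test (adjusted p = 0.410). Irf9, the DNA-binding subunit of ISGF3, stood at 59.2, 61.4 and 63 CPM in the young, 42, 41.1 and 41.8 in the aged, 123, 124 and 126 in the vehicle and 98.3, 90.7 and 90.8 in the uridine libraries. Its aged libraries were all below the young (-0.56 ± 0.0508, adjusted p = 6.39e-12), the 1 call with age in this family. Irf9 rose by 1.58 ± 0.0482 in vehicle culture and fell with uridine (-0.42 ± 0.0426). Stat2, the ISGF3 subunit phosphorylated at the receptor, rose by 2.80 ± 0.0444 in vehicle culture and fell with uridine (-0.51 ± 0.0367). Its age difference of -0.09 ± 0.0513 was not called (adjusted p = 0.114), but passed without young replicate 3 (adjusted p = 0.0468) or without aged replicate 2 (0.00698).

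ISG15 is a ubiquitin-like protein attached to other proteins during infection. Isg15 (chr4:156199424-156200818) had 5.05, 4.43 and 5.03 CPM in the young, 3.06, 2.99 and 2.55 in the aged, 217, 221 and 219 in the vehicle and 117, 120.2 and 124 in the uridine libraries. Every aged library was below every young one and every uridine library below every vehicle one, with changes of -0.75 ± 0.132 for age (adjusted p = 5.79e-06), 6.25 ± 0.0702 for vehicle culture and -0.86 ± 0.0387 for uridine (adjusted p = 6.17e-20). Usp18, the protease that removes ISG15 and dampens the interferon receptor, had 7.90, 6.95 and 7.71 CPM in the young, 3.73, 1.39 and 2.14 in the aged, 191, 183 and 186 in the vehicle and 116, 112 and 107 in the uridine libraries. It was lower in aged cells (-1.63 ± 0.164) and rose by 6.26 ± 0.0983 in vehicle culture, close to the value of Isg15, and the uridine difference was -0.74 ± 0.0535. Herc6, the mouse ligase for ISG15, moved in the same directions with smaller steps (-0.56 ± 0.0850, 2.97 ± 0.0717 and -0.42 ± 0.0554 in the same order).

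The IFIT proteins bind foreign RNA and block its translation. Their 4 genes lie together on chromosome 19, from Ifit2 at chr19:34550694-34576419 to Ifit1 at chr19:34640871-34650009. Ifit1 had 2.95, 4.27 and 2.90 CPM in the young, 1.06, 0.974 and 1.38 in the aged, 188, 180.5 and 185 in the vehicle and 119, 108 and 113 in the uridine libraries. The aged libraries were all below the young ones at these low levels, with -1.56 ± 0.206 on the log2 scale (adjusted p = 3.50e-08), and the rise in vehicle culture was 7.33 ± 0.0981. Uridine libraries were all lower than vehicle ones (-0.70 ± 0.0471). Ifit2 had means of 19.7 ± 0.843 CPM in young and 15.1 ± 0.353 CPM in aged libraries, and the smallest culture rise of the family (4.43 ± 0.0463).

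Ifit3b, whose promoter stretch equals that of Ifit3, was nearly absent before culture, with 23 counts over the young libraries and 2 over the aged. In the libraries this was 0.650, 0 and 0.547 CPM in the young, 0, 0 and 0.138 in the aged, 29.4, 31.4 and 32.2 in the vehicle and 12.7, 14.7 and 13.9 in the uridine libraries. The young to aged ratio was 8.93, with a 95% counting interval from 2.21 to 78.1 that covers counting error only, and the young and aged libraries overlapped. The age call by edgeR (adjusted p = 0.00460) was lost with limma voom (adjusted p = 0.127). Against aged cells the vehicle cultures were 680 times higher (interval 188 to 5620). With uridine it fell by 1.17 ± 0.134 on the log2 scale (adjusted p = 5.71e-09), and Ifit3 by 0.99 ± 0.0587, the 2 largest falls of the 49. Reads cannot always be assigned between the Ifit3 genes, as 18.5% of the 150-base stretches of Ifit3 and 16% of those of Ifit3b occur in a transcript of another gene, so their separate values are uncertain.

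OAS enzymes make the second messenger that switches on RNase L, an activity that the related Oasl1 lacks. All 6 genes were lower in aged cells (median -1.45). The aged libraries lay below the young without overlap in all 6, as they did in 5523 of the 16675 genes tested. Oas3 (chr5:120753098-120777661) had 23.5, 26.4 and 27.2 CPM in the young, 6.99, 6.89 and 5.51 in the aged, 402, 408 and 398 in the vehicle and 278, 277 and 275 in the uridine libraries. The difference of -1.99 ± 0.0783 with age (adjusted p = 2.01e-22) had the smallest adjusted p of any member in that comparison. Its neighbour Oas2, whose start lies 27808 bases away, differed by a similar -1.91 ± 0.0891.

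Oas1g (chr5:120876142-120887613) had 5.95, 4.43 and 5.47 CPM in the young, 1.53, 1.95 and 0.689 in the aged, 105, 101 and 96.1 in the vehicle and 62, 62.2 and 61.6 in the uridine libraries, with the largest culture rise of the family (6.17 ± 0.123). Oas1a had means of 23.8 ± 2.61 CPM in young and 12.1 ± 2.07 CPM in aged libraries, and rose by 4.08 ± 0.0694. The 2 cannot be fully separated in the counts: 32.4% of the 150-base stretches of Oas1a and 24.1% of those of Oas1g are shared. Oasl1, which represses translation of Irf7, fell most of the family with uridine, from 186, 194 and 191 CPM in vehicle to 114, 106 and 107 CPM in uridine libraries, a change of -0.80 ± 0.0473 (adjusted p = 2.19e-16). Oas2 had the smallest uridine difference (-0.50 ± 0.0364). Oasl2 had 479 ± 6.02 CPM with vehicle and 300.7 ± 7.62 CPM with uridine.

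Mx proteins are dynamin-like GTPases that trap viral components. Their genes lie on opposite strands of chromosome 16 with starts 72401 bases apart. GENCODE annotates Mx2 as a polymorphic pseudogene, and whether either transcript gave a working protein in these cells was not tested. Mx1 had 13.7, 12 and 12.6 CPM in the young, 5.93, 5.36 and 4.07 in the aged, 246, 233 and 224 in the vehicle and 146, 147 and 149 in the uridine libraries. The vehicle cultures were higher than aged cells by 5.51 ± 0.0701 and the uridine cultures were lower than vehicle ones (-0.67 ± 0.0419), and the aged libraries were all below the young (-1.32 ± 0.105, adjusted p = 1.78e-13). Mx2 had 5.85, 6.41 and 4.16 CPM in the young, 1.80, 1.67 and 1.10 in the aged, 50.4, 44.6 and 49.4 in the vehicle and 29, 31.2 and 34.1 in the uridine libraries. It showed the same order of groups, with -1.84 ± 0.201 for age and -0.62 ± 0.0893 for uridine.

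Of the enzymes acting on nucleotides or RNA, Rsad2 (viperin, chr12:26442746-26456452) makes a chain-terminating nucleotide from CTP, and Cmpk2 is the mitochondrial kinase encoded beside it, with starts 12752 bases apart on opposite strands. Rsad2 had 12.4, 13.9 and 14.6 CPM in the young, 4.73, 4.52 and 2.76 in the aged, 344, 344 and 343 in the vehicle and 207, 203 and 208 in the uridine libraries. The aged libraries were all under the young (-1.76 ± 0.110, adjusted p = 1.68e-16), and the rise in vehicle culture was 6.42 ± 0.0695. Cmpk2, which phosphorylates pyrimidine nucleoside monophosphates including UMP, followed with -1.32 ± 0.0643, 3.84 ± 0.0540 and, for uridine, -0.52 ± 0.0386. Samhd1 and Isg20 differed from this pair: Samhd1, which breaks down deoxynucleotides, already had a mean of 151 ± 3.53 CPM in young libraries and was higher in the aged at 207 ± 7.68 CPM (0.46 ± 0.0317, adjusted p = 3.61e-15). Isg20, an RNA exonuclease, had 16, 16.2 and 13.6 CPM in the young, 26.5, 22.5 and 25.7 in the aged, 88.4, 88.7 and 90.7 in the vehicle and 53.6, 52 and 49 in the uridine libraries. It was higher in aged cells (0.70 ± 0.0816) and lower with uridine (-0.79 ± 0.0612), so that both age directions occurred within this family while the direction with uridine was shared.

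**Figure D3:**
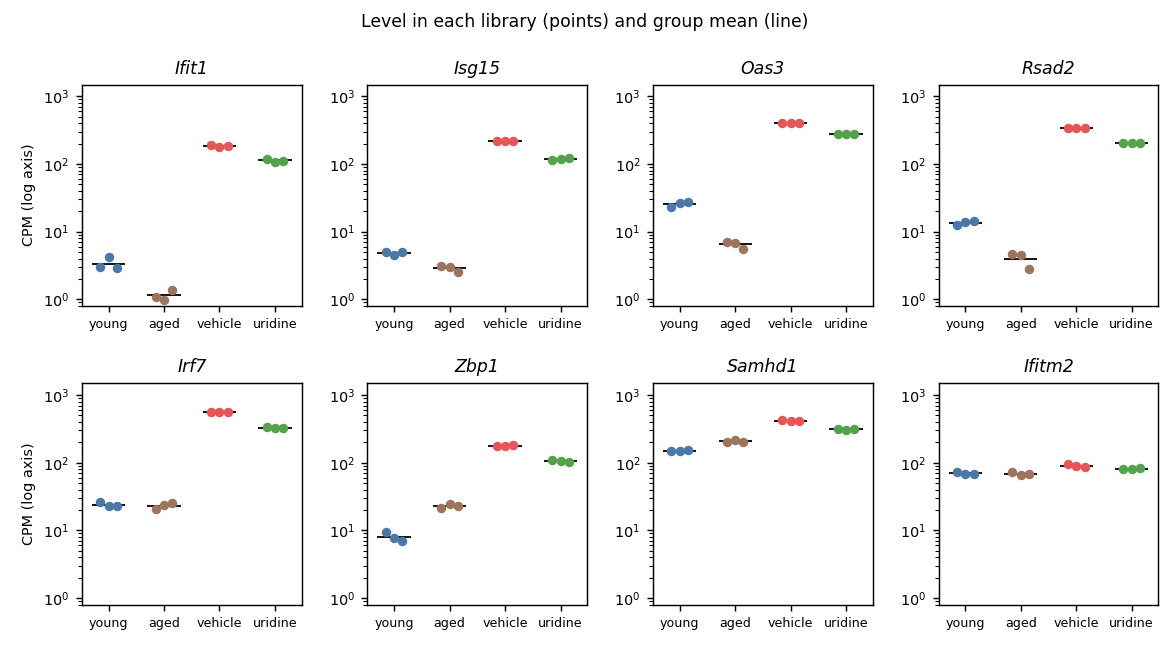
Level in each library (points, 3 per group) and group mean (line) of 8 members on a logarithmic CPM axis. Ifit1, Isg15, Oas3 and Rsad2 were lower in aged than in young libraries, Zbp1 and Samhd1 higher, and Irf7 and Ifitm2 not called; in all 8 the vehicle libraries are the highest.

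The nucleic acid sensors showed the widest spread with age. Ifi204, a DNA sensor of the interferon-inducible gene cluster on chromosome 1, had 9.24, 9.64 and 7.82 CPM in the young, 1.40, 1.46 and 0.551 in the aged, 149.5, 142 and 144 in the vehicle and 85.8, 85.5 and 93.7 in the uridine libraries. That was -2.96 ± 0.179 for age (adjusted p = 6.91e-17), with 504 counts over the young and 50 over the aged libraries, and 6.98 ± 0.112 for vehicle culture. Zbp1, a sensor of Z-form nucleic acid that can trigger necroptosis, lay at the other end with 9.29, 7.78 and 6.89 CPM in the young, 21.5, 24.5 and 22.6 in the aged, 177, 179 and 181 in the vehicle and 109.7, 107 and 104 in the uridine libraries. Its aged libraries were all above the young ones, by 1.51 ± 0.0845 (adjusted p = 7.47e-18), the largest rise with age among the members, and it fell by 0.75 ± 0.0458 with uridine.

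The 3 RNA helicases of the RIG-I family differed in direction with age. Ddx58, which encodes RIG-I, had 31.6, 31.8 and 29.1 CPM in the young libraries and 58.2, 57.3 and 54.6 CPM in the aged, higher by 0.88 ± 0.0493. Ifih1, which recognises long viral RNA, was lower in aged cells (-0.60 ± 0.0668), as was Dhx58 (-0.38 ± 0.0649), a regulator of the other two. In vehicle culture all 3 rose (2.26 ± 0.0407 for Ddx58, 3.51 ± 0.0539 for Ifih1 and 3.46 ± 0.0514 for Dhx58), and with uridine all 3 fell, with changes from -0.49 to -0.58. Eif2ak2, the RNA-activated kinase PKR, was lower in aged cells (-0.68 ± 0.0552). Trim25, the ligase that activates RIG-I, was abundant in all groups, with means from 114 to 296 CPM, and had the smallest uridine difference of the 7 (-0.23 ± 0.0301).

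Parp9, Parp12 and Parp14 belong to the ADP-ribosyltransferase family, and Dtx3l is the ubiquitin ligase that works with Parp9. Parp12, which blocks viral translation, had 15.4, 17.1 and 15.4 CPM in the young, 6.72, 8.35 and 8.27 in the aged, 216, 219.8 and 208 in the vehicle and 142, 139 and 143 in the uridine libraries. It changed most of the 4 in every comparison: -1.04 ± 0.0858 with age, 4.79 ± 0.0614 with vehicle culture and -0.60 ± 0.0396 with uridine (adjusted p = 4.10e-15). Dtx3l and Parp9 overlap on chromosome 16, their starts 681 bases apart on opposite strands, and their exons overlap by 458 bases. Their uridine differences were -0.40 ± 0.0377 and -0.53 ± 0.0377, and since use of strand in the counting is not given, reads in the overlap cannot be told apart. Parp14 reached 481 ± 6.23 CPM with vehicle and 335 ± 6.56 CPM with uridine.

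The membrane restriction factors hold virions or stop their fusion. Ifitm3, which stops fusion in endosomes, had 80.6, 83.2 and 84.2 CPM in the young, 64.7, 59.5 and 55.9 in the aged, 841, 844 and 833 in the vehicle and 487, 483 and 479 in the uridine libraries. The uridine libraries were all below the vehicle ones, and the fall was -0.80 ± 0.0286, with the smallest adjusted p of the 49 (6.85e-23). Aged libraries were all below young ones (-0.46 ± 0.0387). Ifitm2, 54783 bases from it by start, had 72.9, 67.7 and 67.5 CPM in young, 72, 64.8 and 67.1 in aged, 94.4, 91 and 87.3 in vehicle and 79.8, 81.3 and 84.3 in uridine libraries. Its differences were the smallest of all members in culture (0.42 ± 0.0497) and with uridine (-0.15 ± 0.0474, adjusted p = 0.00993). The uridine call did not hold without vehicle replicate 1 (adjusted p = 0.0776) or without uridine replicate 1 (0.0515), and 23.5% of its 150-base stretches occur in another gene's transcript.

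Bst2 (tetherin), which ties budding virions to the cell, had 89.2, 81.7 and 90.4 CPM in the young and 102, 87.6 and 100.4 CPM in the aged libraries. These groups overlapped, and the age call of 0.15 ± 0.0430 (adjusted p = 0.00297) was lost without young replicate 2 (adjusted p = 0.0531). Cultures had 502, 518 and 511 CPM with vehicle and 304, 304 and 300.5 CPM with uridine, a fall of 0.75 ± 0.0352 on the log2 scale.

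Ifi27 and Ifi27l2a encode small membrane proteins and lie next to each other on chromosome 12. Ifi27 had 44.8, 43.2 and 45.7 CPM in the young, 61.6, 61.6 and 54.9 in the aged, 94.8, 89.1 and 91.6 in the vehicle and 58.3, 66.3 and 60.9 in the uridine libraries. It was higher in aged than in young libraries (0.41 ± 0.0587, adjusted p = 1.35e-07), its rise in vehicle culture was small (0.63 ± 0.0554), and its uridine libraries, lower than vehicle ones (-0.57 ± 0.0535), overlapped the uncultured aged ones. Ifi27l2a, in contrast, had 15, 14 and 16.1 CPM in the young, 12.7, 11.8 and 12.6 in the aged, 157, 159 and 155 in the vehicle and 87, 87.7 and 89.7 in the uridine libraries. That was -0.28 ± 0.0781 with age, 3.66 ± 0.0601 with vehicle culture and -0.83 ± 0.0447 with uridine (adjusted p = 1.34e-17).

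Of the 11 further genes, 4 were lower in aged cells, 3 higher and 4 not called, where 32.1% of all genes were lower and 33.2% higher. Rtp4, which assists receptor transport and controls viral replication, had the largest age difference with 5.75, 6.30 and 7.66 CPM in the young, 1.80, 2.23 and 2.07 in the aged, 124, 132 and 122 in the vehicle and 75.9, 80.8 and 71 in the uridine libraries. Its aged libraries were all below the young ones (-1.69 ± 0.160, adjusted p = 1.49e-11). Ifi44 was also lower by more than 1 (-1.06 ± 0.140), and Trim30a and Lgals3bp by less (-0.70 ± 0.0483 and -0.27 ± 0.0342). Samd9l, a growth restraint of haematopoietic cells, was higher in aged libraries at 75.4, 80.7 and 79.2 CPM against 40.6, 39.6 and 44.5 CPM in young ones (0.92 ± 0.0480), as were Sp100 (0.29 ± 0.0368), a nuclear body protein, and Phf11d (0.85 ± 0.245). Ifi35 (0.15 ± 0.0810) and Xaf1 (0.05 ± 0.0963) were not called, though Ifi35 passed without young replicate 1 (adjusted p = 0.0227).

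The apolipoprotein L genes Apol9a and Apol9b had few or no counts before culture. Apol9a had 0 counts in all 6 uncultured libraries and 20.4, 23.2 and 20.9 CPM in vehicle and 10.6, 12.4 and 12.2 CPM in uridine libraries. Against a floor of 3 counts over the aged group, vehicle cultures were at least 315-fold higher. Apol9b, with 4 counts over the young and 6 over the aged libraries, reached 38.7, 41.9 and 42 CPM with vehicle and 19.4, 19.9 and 24.7 CPM with uridine. With uridine they differed from vehicle by -0.87 ± 0.121 and -0.94 ± 0.100 (adjusted p = 1.09e-09 for the latter). The pair share sequence, with 22.5% of the 150-base stretches of Apol9b and 7.10% of those of Apol9a found in another gene, so their separate values are uncertain.

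**Figure D4:**
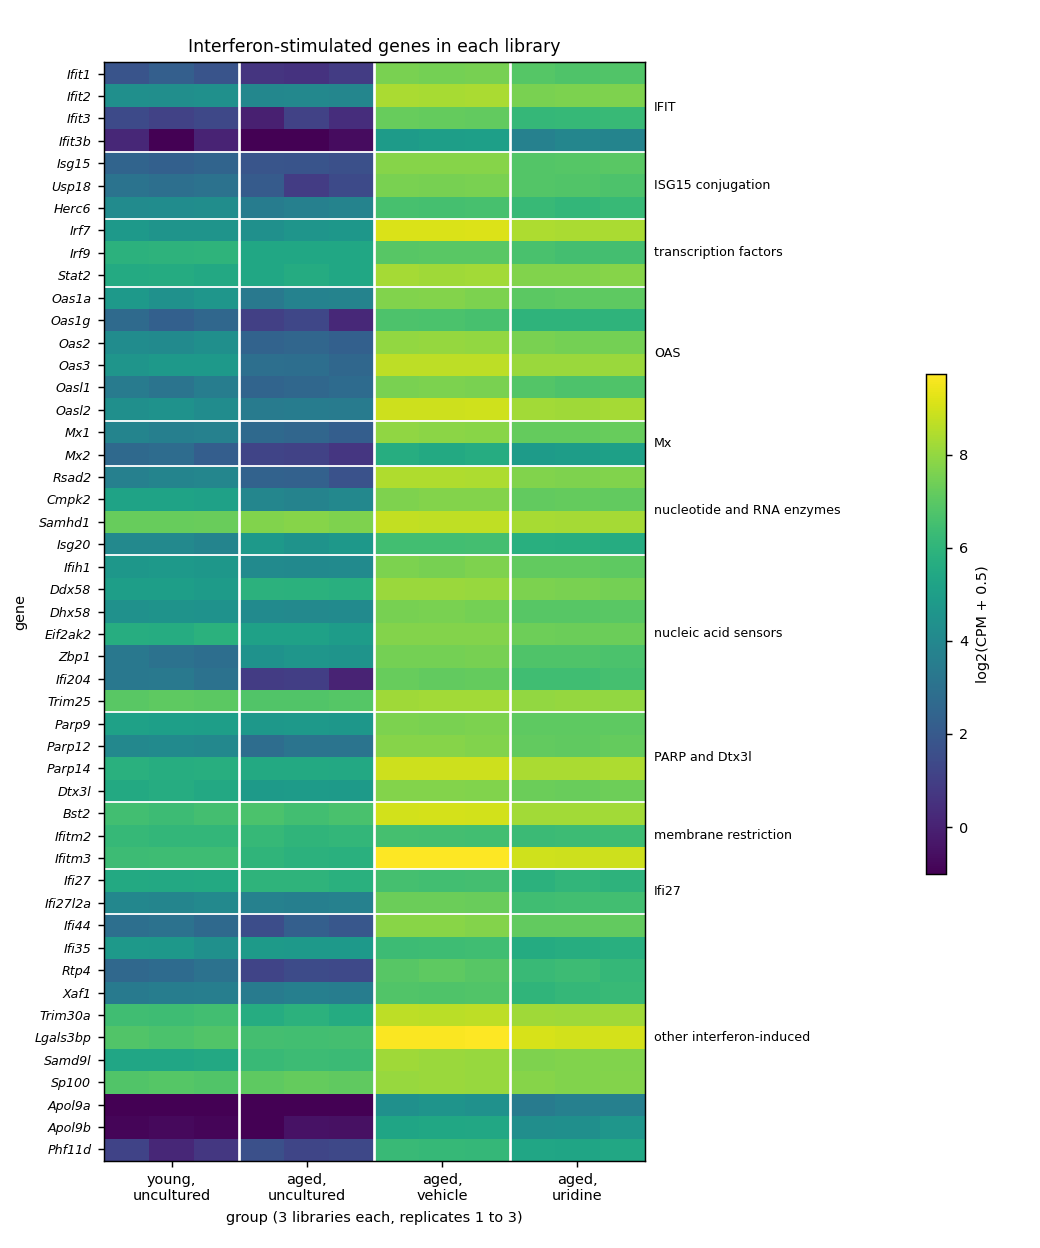
Level of each member (rows, by family) in each of the 12 libraries (columns, 3 per group in order of replicate number), coloured by log2(CPM + 0.5). The vehicle columns are the brightest in all 49 genes, and libraries of a group look alike.

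Levels can be compared between genes only per length. Expressed as counts per kilobase of exon and scaled to a common total per library (as TPM), Ifitm3 was the most abundant member in young libraries at 419, followed by Ifitm2 at 364 and Bst2 at 332, and 0 was recorded for Apol9a. In vehicle cultures the same scale gave Ifitm3 4171, Bst2 1904, Ifi27l2a 1142 and Isg15 976, and the lowest were Mx2 at 44.9, Herc6 at 34.9 and Apol9a at 12.2. With uridine the leading 3 were again Ifitm3 (2528), Bst2 (1190) and Ifi27l2a (675). The scale is relative to all transcripts of a library, so in aged libraries the immunoglobulin share lowers every other gene on it, and levels there are best read against each other: Bst2 at 179, Ifitm2 at 174 and Ifitm3 at 148.

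Of 42 listed genes acting around the members in the pathway, 33 passed the low-count filter. In aged cells 15 were higher, 10 lower and 8 not called, where 33.2% of all genes were higher and 32.1% lower. In vehicle culture against aged cells 20 were higher, 9 lower and 4 not called (35.4% higher and 35.1% lower over all genes). With uridine 4 were higher, 17 lower and 12 not called (20.0% higher and 18.1% lower over all genes). The ligands themselves were scarce. Ifna2, Ifna4, Ifna5, Ifne, Ifnl2 and Ifnl3 had 0 counts in all 12 libraries, Ifna1 had 1 and Ifnk 23. Ifnb1, the beta interferon gene, had 0 counts in the uncultured libraries, 40 over the vehicle libraries (0.105, 0.879 and 1.24 CPM) and 31 over the uridine libraries (0.345, 0.972 and 0.249 CPM). Ifnb1 was higher in vehicle cultures than in aged cells, and its uridine difference of -0.50 ± 0.635 was not called, a level at which a difference of the members' size was not detectable. Ifng, the gamma interferon gene, had 1.65, 1.21 and 0.383 CPM in the young libraries and 2.46, 3.27 and 3.17 CPM in the aged, and was higher in the latter (log2 fold change 1.44), and fell in vehicle culture (-3.51).

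Across 6 receptor genes the median change in vehicle culture was 0.40, and across 9 kinase and transcription factor genes -0.07. Ifnar1, a chain of the type I receptor, was higher in vehicle culture by 0.50 and not called with uridine (-0.07), while Ifnar2, its partner, was higher by 0.80 and fell with uridine by 0.32. Ifngr1 went the other way, lower in vehicle culture (-1.09) and higher with uridine (0.35). Among the kinases Jak1, Jak2 and Tyk2, log2 fold changes in vehicle culture were 0.14, 0.65 and 0.49, and only Tyk2 was called with uridine (-0.16).

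Upstream of interferon, 9 of 11 sensors and adaptors were higher in vehicle culture (35.4% of all genes). With uridine 8 of 11 were lower (18.1% of all genes) and none higher (20.0%). Of the 8 called lower, Ikbke and Tlr9 lost the call when certain libraries were left out. Tlr3 had the largest rise of the 11 in vehicle culture (3.48), and its uridine difference of -0.33 was not called. Tlr7, an endosomal receptor for RNA, rose by 1.95 in vehicle culture and fell by 0.68 with uridine. Cgas, the enzyme that senses cytosolic DNA, rose by 1.83 and fell by 0.23. Irf8, a factor of monocyte and dendritic cell development, moved against the members, -0.76 in vehicle culture and 0.55 with uridine. Of the genes that restrain signalling, Adar, which edits RNA so that it escapes sensing, rose by 1.81 in vehicle culture and fell by 0.28 with uridine. Socs1 likewise rose by 0.63 and fell by 0.58, while Socs3 fell by 3.15 and rose by 0.91. Ptpn2 and Rnaseh2b were called in neither comparison.

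The summed level of 10 monocyte and macrophage markers was 292 to 301 CPM in young, 169.8 to 186 in aged, 870.1 to 881 in vehicle and 618 to 641 in uridine libraries, an order of groups shown without overlap by 31 of 49 members and by 4.49% of all genes. The list was not uniform with age, with 4 lower, 3 higher and 3 not called in aged cells and a median log2 fold change of -0.03. Over all genes 32.1% were lower and 33.2% higher with age. Csf1r, at 180.0, 184 and 187 CPM in the young libraries and 78.7, 73.5 and 76.5 CPM in the aged, made most of the difference in the sum. In vehicle culture 6 of the 10 were higher and 4 lower (35.4% higher and 35.1% lower over all genes). The rises were led by Fcgr1 (log2 fold change 7.27), which interferon also induces, with Cx3cr1 at 4.14, Adgre1 at 3.08 and Csf1r at 2.42, while C1qa fell by 2.57. With uridine 6 were lower and 2 higher (18.1% lower and 20.0% higher over all genes). None of these 10 markers was at 0 in any group, and their part in the members' differences was not tested.

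Plasmacytoid dendritic cells, which make type I interferon and express Irf7 at rest, were traced by 8 markers. These summed to 299 to 312 CPM in young, 309 to 351 in aged, 212 to 220.2 in vehicle and 235 to 251 in uridine libraries, with Cd209d at 0 in vehicle libraries. Most of each sum came from Tcf4, with means of 118 CPM in young and 202 in aged libraries, and Runx2, with 133 and 95.2. The sums therefore say little about the other markers. Siglech, a defining marker, had 29.3, 29.4 and 31.3 CPM in the young libraries and 4.53, 5.36 and 3.24 CPM in the aged. That is a log2 fold change of -2.78, and 4 of the 8 were lower and 3 higher in aged cells (32.1% lower and 33.2% higher over all genes). Plasma cell markers, at 25630 to 25890 CPM in aged and at most 1092 CPM in any other library, and B cell markers, at 2173 to 2247 CPM in aged and at most 506 CPM in any other, moved with the age difference too, as did neutrophil markers in the other direction. Their part in the age difference of the members was not tested.

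The uridine libraries were next placed on a line from the vehicle mean (0%) to the young mean (100%) for each gene, a measure chosen after the data had been seen. Members lay at a median of 40.6%, with quartiles at 36.7 and 44.9% and a range from 25.9% in Trim25 to 63.5% in Ifi27. The 1210 genes of at least 5 CPM that were at least 2 times higher in vehicle than in young libraries had the same median, 40.6%, with quartiles at 32.2 and 47.6%. In the 772 genes that were at least 2 times higher in young libraries the median was 34.7%. The medians were 34.2% for neutrophil, 33.1% for erythroid, 31.2% for B cell and 41.8% for monocyte and macrophage markers. The members thus lay where genes higher in vehicle than in young libraries lay as a whole. That set was drawn from all genes, members included. Single markers ranged more widely, among monocyte and macrophage markers from 3.36 to 245%. Slc4a1, the red cell anion exchanger, had 0 counts in vehicle libraries and was detected with uridine. The vehicle mean enters both the difference measured and the length of the line, and what sets the common position was not tested.

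**Figure D5:**
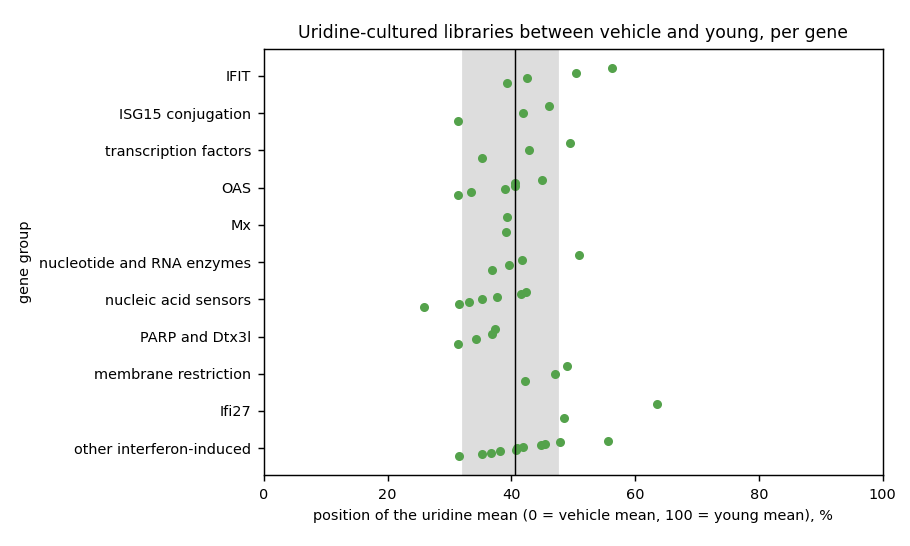
Position of the uridine mean between the vehicle mean (0%) and the young mean (100%) on the CPM scale, one point per member in rows by family. The vertical line is the median (40.6%) and the grey band the quartiles (32.2 to 47.6%) of all 1210 genes at least 2 times higher in vehicle than in young libraries; members run from 25.9 to 63.5%.

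The promoters shown above can be set beside these values as a description. Members with a core match in their window had a median log2 fold change of 5.02 in vehicle culture (lowest 0.42), and members with a window but no match 3.17 (0.96 to 6.07). The medians for age were -0.69 with a match and -0.27 without, and those for uridine -0.70 and -0.63. The ranges overlapped in all 3 comparisons. Ifitm2, the member that changed least in culture, held a match, as did Ifit3b and Apol9a.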

How the data were processed

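Bulk mRNA of 12 libraries was purified with poly-T beads and sequenced as 150-base paired reads, per the labels' protocols, and aligned to mm10 with HISAT2 2.0.5, per the submitters' processing notes. The authors deposited raw read counts per Ensembl gene ID. How reads were counted (program, gene models, strand) is not given in the sources used here. Reads of overlapping genes, and of members with near-identical sequence, may therefore be divided in ways that are not known. Of 54532 IDs 54495 matched GENCODE M21, from which symbols, positions and exon lengths were taken, and 37 did not. Groups came from the sample titles, and no value column was left unused. Totals of 16785065 to 19025802 counts leave a floor of 3 counts over a group for genes at 0 (95% confidence, counting error only).

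All 12 libraries entered 1 fit in edgeR 4.0.16 (R 4.3.3), with a mean for each group, after filterByExpr and TMM scaling. Its quasi-likelihood F-test gave 3 contrasts (residual degrees of freedom 8, prior 26.47). Adjustment was by Benjamini-Hochberg across the 16675 genes kept, and a call needed an adjusted p under 0.05. The procedure was also run on simulated counts with known changes. Far fewer genes were changed there than were called in these data, so nothing is concluded from that run. Replicates of a group differed by more than sampling noise in all 12 pairs (chi-square per degree of freedom 2.27 to 3.94). The alternatives were DESeq2 1.42.0, limma 3.58.1 voom, other scaling factors, other filters, no immunoglobulin genes, the compared libraries only, a replicate block and leaving out each library.

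The members and all lists were chosen with earlier results of these data known. Any of the 49 members could be named, and in each family library values were given at least for the called member of largest change in each comparison; of other genes only those of the pathway and cell marker lists were named. The position between vehicle and young libraries, and the count of 150-base transcript stretches shared with another gene, were chosen after the data were seen. The latter took the place of a comparison of protein sequences, which were not used here. Promoter windows were RefSeq's, on GRCm38.p6.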

Additional observations from a re-analysis of the deposited data

How the results depend on the processing

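Across the alternatives, 2195 of 2202 values of single members kept their direction and their side of the threshold, 4 lost the call, 3 gained it and 0 reversed. The 7 are Ifit3b, Bst2, Stat2 (2 settings) and Ifi35 for age and Ifitm2 (2 settings) for uridine, each given above with its adjusted p. For aged against young cells, 8 to 10 members were higher and 32 to 34 lower over all alternatives, 12 to 16 were lower by at least 1, and the median ran from -0.58 to -0.52. For vehicle against aged cells, 49 were higher throughout, 45 to 46 of them by at least 1. For uridine against vehicle, 48 to 49 were lower and the median ran from -0.68 to -0.64.

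Counts of members past a log2 change of 1 are small and moved with the settings. With age, 1 to 2 members were higher by at least 1 when 1 library was left out, with 2 without young replicate 1. With uridine, the count lower by at least 1, which was 1, became 2 with DESeq2, 2 with DESeq2 size factors in edgeR and 2 with no low-count filter. It ran from 1 to 3 when 1 library was left out, with 2 without vehicle replicate 2, 2 without vehicle replicate 3 and 3 without uridine replicate 3. Ifit3 lay at -0.99, just inside that limit.

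With the replicate number as a block, 49 members were lower with uridine and 9 higher and 33 lower with age, the same counts as without it. The numbers did not pair the libraries: correlations between same-numbered libraries ran from -0.0187 to 0.0207, and 2 of 12 libraries correlated best with their own number. Depth limits Ifit3b, Apol9a, Apol9b and Ifnb1 before culture, where few or no counts were seen.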
